A study of Homo sapiens with 14 samples.

Results

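The aldehyde dehydrogenases described here are 10 genes, ALDH1A1, ALDH1A3, ALDH1B1, ALDH2, ALDH3A1, ALDH3A2, ALDH5A1, ALDH6A1, ALDH7A1 and ALDH9A1, taken by gene name from a count table of 56479 genes. The genes were chosen by name with earlier results of these libraries in view, and which values guided the choice is not recorded. The tests of members below therefore describe these libraries and are not independent evidence. All 10 genes were in the table and 9 passed the low-count filter. ALDH1A3 did not pass, and ALDH3A1 passed with 0 to 19 counts per library.

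RNA was sequenced from HepG2, labelled hepatoblastoma, and Hep3B, labelled hepatocellular carcinoma, both established human liver lines labelled as wild type, giving 14 libraries in 7 groups with 2 each. On culture dishes, HepG2 grew for 5 days in isotonic medium or with 4% polyethylene glycol (PEG300, PEG from here on), which makes the medium hyperosmotic. On transwells, hanging inserts whose floor is a membrane, HepG2 was either uncompressed or loaded with a weight, and Hep3B was uncompressed, loaded with a weight or kept in 3% PEG. Each line comes from 1 tumour. How heavy the weight was and how long transwell cultures ran: not given in the sources used here. Labels name the dish libraries biological replicates and do not say how the transwell replicates were made, so p-values measure only the spread between samples, which may be technical.

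Aldehyde dehydrogenases oxidise aldehydes to carboxylic acids with NAD or NADP, and the liver uses them to clear the acetaldehyde made from alcohol. Other members remove aldehydes that arise when membrane lipids, amino acids and neurotransmitters are broken down, and a subset makes retinoic acid, the hormone-like product of vitamin A. High ALDH activity is also widely used to mark stem-like cells in tumours.

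Libraries held 21.2 M to 35.4 M counts in total. Levels are in CPM, counts scaled to a common library size by the TMM method. Changes are log2 fold changes, written with their standard error after ±. RB1, a tumour suppressor known to be lost in Hep3B, was at 101 to 147 CPM in HepG2 libraries and 2.63 to 4.94 CPM in Hep3B libraries. The 8 hepatocyte markers summed to 134675 to 142890 CPM in isotonic HepG2 and to 31073 to 34475 CPM in 4% PEG, with no marker at 0 in any group. Markers of fibroblasts summed to at most 27.5 CPM in any library, those of endothelium to at most 14.9 CPM and those of immune cells to at most 11.2 CPM, the last in 4% PEG, where PTPRC was at 0. The 4 bile duct markers summed to 549 to 970 CPM; KRT7 was at 0 in 4% PEG and in uncompressed HepG2 and at most 1.45 CPM elsewhere. In these bulk libraries, fewer cells of a type and less RNA per cell cannot be told apart.

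Promoter sequences were read from RefSeq (GRCh38.p14) for 8 of the 10 genes, in 9 entries; ALDH2 and ALDH3A1 have no entry. The 250 bases before the start of 3 genes are shown, because ALDH1A1 and ALDH1A3 make the same product and were the most and the least abundant of the 10 genes per length, while ALDH1B1 fell in each of the 4 treatment comparisons. Capitals mark CCAAT or, on the other strand, ATTGG. ALDH1A1 lies on the minus strand at chr9:72953054-72953303, ALDH1A3 on the plus strand at chr15:100879581-100879830 and ALDH1B1 on the plus strand at chr9:38392452-38392701. The starts are those of the RefSeq entries. The windows of ALDH1A1 and ALDH1A3 lie inside the gene spans given below, which come from another annotation.
ALDH1A1: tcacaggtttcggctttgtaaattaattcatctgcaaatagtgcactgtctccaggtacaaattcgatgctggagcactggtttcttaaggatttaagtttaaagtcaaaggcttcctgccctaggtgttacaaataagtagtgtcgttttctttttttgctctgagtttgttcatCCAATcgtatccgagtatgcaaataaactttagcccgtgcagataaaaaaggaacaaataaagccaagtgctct
ALDH1A3: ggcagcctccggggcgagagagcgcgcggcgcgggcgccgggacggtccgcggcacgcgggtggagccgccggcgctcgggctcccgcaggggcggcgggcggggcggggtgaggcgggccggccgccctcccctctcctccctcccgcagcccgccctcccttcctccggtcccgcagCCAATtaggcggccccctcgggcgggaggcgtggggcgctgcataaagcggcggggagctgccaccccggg
ALDH1B1: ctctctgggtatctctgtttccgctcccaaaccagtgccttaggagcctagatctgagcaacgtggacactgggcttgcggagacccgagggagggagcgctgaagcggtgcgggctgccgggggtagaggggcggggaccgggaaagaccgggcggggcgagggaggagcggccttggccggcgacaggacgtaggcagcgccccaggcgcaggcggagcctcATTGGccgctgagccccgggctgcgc

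The paralogues ALDH1A1 and ALDH1A3 differ in base composition here, with 38.4% and 82.4% G and C and with 6 and 38 CpG dinucleotides. The median over 35116 RefSeq promoters was 58% and 11 CpG. ALDH1B1 lay between, at 70.4% and 23 CpG. CCAAT was found, on either strand, in 6 of the 8 matched genes and in 32% of all RefSeq promoters of this length. It began 74 bases before the start in ALDH1A1 and 71 bases before it in ALDH1A3, and ALDH6A1 held 4 matches. TATAAA was in none of the 9 entries and in 10.7% of all promoters. GCGTG, the core letters bound by the aryl hydrocarbon receptor, was in ALDH1A3, ALDH3A2 and ALDH5A1 and in 32.2% of all promoters. TGACNNNGC, the letters of an antioxidant response element, was in none of the entries and in 10.9% of all promoters. These are matches of letters, with no binding data behind them.

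Per length, ALDH1A1 was the most abundant of the 10 genes in each group, and its lead was larger in Hep3B. To compare genes, CPM was divided by the length of the principal GENCODE 29 transcript in kilobases; the order below ALDH1A1 depends on that choice of length. In isotonic HepG2 the order of mean levels was ALDH1A1 at 75.4 CPM per kb, ALDH3A2 at 50.9, ALDH1B1 at 35.7, ALDH5A1 at 28.4 and ALDH7A1 at 25.5. ALDH6A1 at 17.3, ALDH9A1 at 15.9 and ALDH2 at 5.22 CPM per kb followed. ALDH5A1 and ALDH7A1 overlapped between libraries, as did ALDH6A1 and ALDH9A1; the other neighbours among these 8 genes did not. The place of ALDH2 rests on its annotated transcript of 9569 bases, the longest of the 10. Divided by the length of all annotated exons joined instead, ALDH1A1 stayed first in isotonic HepG2, at 55.7 CPM per kb. ALDH1B1 (34.7) then stood above ALDH3A2 (31.0), and ALDH5A1 (11.6) and ALDH7A1 (7.03) stood below ALDH6A1 (14.2) and ALDH9A1 (13.0).

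By principal transcript, in uncompressed HepG2 on transwells the order was ALDH1A1 (103 CPM per kb), ALDH3A2 (65.4), ALDH5A1 (49.9), ALDH1B1 (48.2), ALDH7A1 (30.8), ALDH9A1 (21.7), ALDH6A1 (17.9) and ALDH2 (7.82), with no overlap between neighbours. In uncompressed Hep3B it was ALDH1A1 (565), ALDH3A2 (61.0), ALDH1B1 (26.6), ALDH7A1 (26.0), ALDH9A1 (17.4), ALDH5A1 (12.8), ALDH6A1 (9.48) and ALDH2 (5.80), and only ALDH1B1 and ALDH7A1 overlapped. ALDH5A1 thus stood above ALDH9A1 in both untreated HepG2 groups and below it in uncompressed Hep3B, while ALDH5A1 and ALDH1B1 changed places within HepG2, between dish and transwell. By joined exons these are 20.5 for ALDH5A1 and 46.8 for ALDH1B1 in uncompressed HepG2 on transwells, and ALDH5A1 was below ALDH9A1 on dishes as well. In 4% PEG, by principal transcript, ALDH5A1 (34.6 CPM per kb) stood above ALDH3A2 (31.5), and ALDH1B1 (15.5) overlapped with ALDH7A1 (15.8); by joined exons ALDH5A1 (14.2) was below ALDH3A2 (19.1) and ALDH7A1 (4.38) below ALDH1B1 (15.1). By principal transcript again, in 3% PEG ALDH1B1 (10.7) overlapped with ALDH5A1 (10.0), and ALDH2 (8.18) stood above ALDH6A1 (6.51). Under the weight, ALDH5A1 (33.4) and ALDH1B1 (30.2) overlapped in HepG2, and ALDH9A1 (16.6) and ALDH1B1 (15.5) overlapped in Hep3B.

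ALDH1A1 held 18.5% ± 0.334 (SD, n = 2) of the summed per-length signal of all 19 ALDH genes in isotonic HepG2 and 28.0% ± 2.14 in 4% PEG. On transwells its share in HepG2 was 19.8% ± 0.0404 uncompressed and 20.7% ± 1.26 under the weight. In Hep3B it was 71.9% ± 0.267 uncompressed, 68.9% ± 1.08 under the weight and 87.3% ± 0.275 in 3% PEG. The summed signal was 785 ± 4.35 CPM per kb in uncompressed Hep3B, 596 ± 83.9 under the weight and 1272 ± 46.2 in 3% PEG. In HepG2 it was 408 ± 10.1 in isotonic medium, 290 ± 10.9 in 4% PEG, 520 ± 3.41 on uncompressed transwells and 356 ± 6.04 under the weight. A share moves with this sum, and ALDH18A1, which is not among the 10, held more of it than ALDH1A1 in 3 of the 4 HepG2 groups. The ALDH18A1 share was 27.4% ± 2.31 in isotonic medium, 25.6% ± 0.244 on uncompressed transwells, 24.6% ± 0.166 under the weight and 11.4% ± 0.402 in 4% PEG. ALDH1A1 itself went from 75.4 to 81.3 CPM per kb in 4% PEG, so its larger share there came with a smaller sum.

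**Figure D1:**
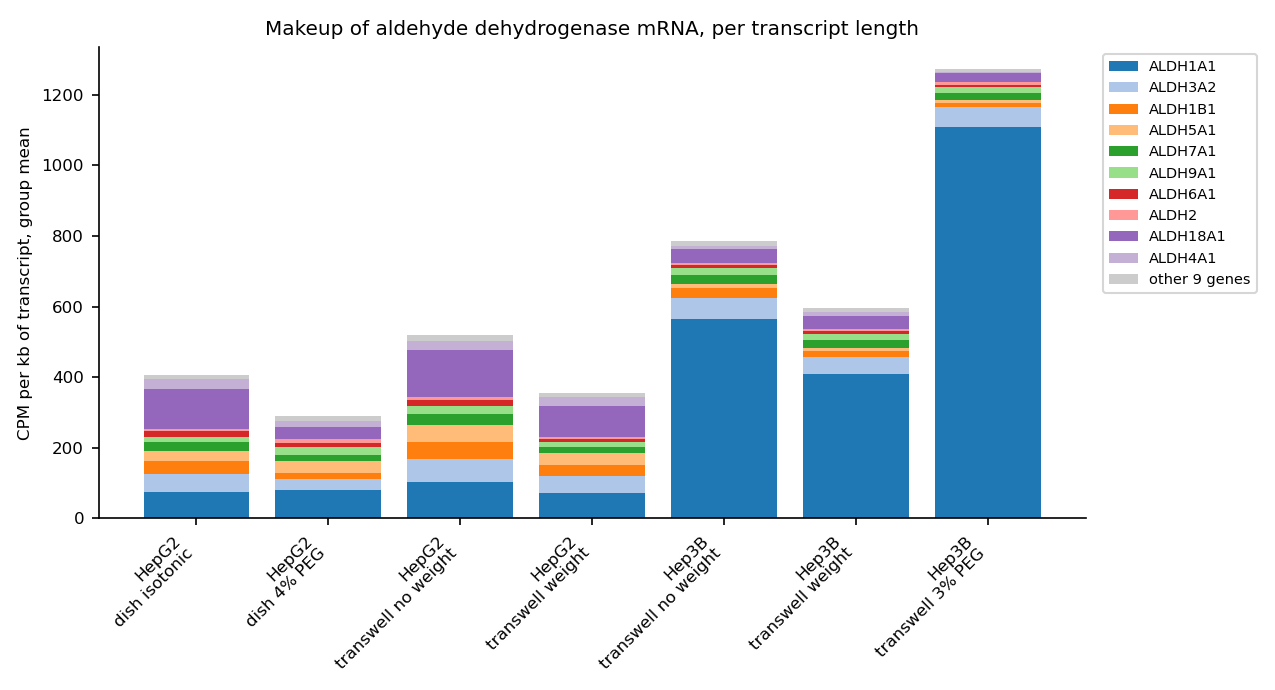
Stacked bars give the group mean (n = 2) of CPM per kb of principal transcript for the ALDH genes, by gene, in each of the 7 groups; the vertical axis is linear and starts at 0. ALDH1A1 fills 71.9% of the bar in uncompressed Hep3B and 87.3% in 3% PEG, against 18.5% to 28.0% in the HepG2 groups, where ALDH18A1 fills 11.4% to 27.4%.

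ALDH1A1 and ALDH1A3 are cytosolic enzymes that turn retinaldehyde into retinoic acid. ALDH1A1 (ENSG00000165092, chromosome 9, 72900662 to 73080442, minus strand) stood in HepG2 at 158 and 160 CPM in isotonic medium, 176 and 166 CPM in 4% PEG, 218 and 215 CPM on uncompressed transwells and 160 and 150 CPM under the weight. Hep3B libraries held 1182 and 1197 CPM uncompressed, 961 and 770 CPM under the weight and 2404 and 2274 CPM in 3% PEG. Every Hep3B library was above every HepG2 library, and the 3% PEG libraries were the highest of all. ALDH1A1 rose 1.97-fold in 3% PEG (0.98 ± 0.11, adjusted p = 0.000116 from edgeR's quasi-likelihood fit, adjusted by Benjamini-Hochberg, as are all adjusted p-values below). It fell under the weight in HepG2 (-0.48 ± 0.11, adjusted p = 0.0206). Under the weight in Hep3B its change was of like size but did not pass the test (-0.46 ± 0.11, adjusted p = 0.102). In 4% PEG its change was 0.11 ± 0.11 (adjusted p = 0.462). ALDH1A3 (ENSG00000184254, chromosome 15, 100877714 to 100916626, plus strand) had 2 counts in 4% PEG replicate 1, 1 in each HepG2 library under the weight and none in the other 11 libraries. A count of 0 allows up to 3 counts, which is 0.0953 to 0.141 CPM in these libraries.

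ALDH1B1 and ALDH2 are closely related mitochondrial enzymes, and ALDH2 is the main enzyme that clears acetaldehyde. ALDH1B1 (ENSG00000137124, chromosome 9, 38392664 to 38398661, plus strand) stood in HepG2 at 108 and 111 CPM in isotonic medium, 51.7 and 43.3 CPM in 4% PEG, 148 and 147 CPM on uncompressed transwells and 87.0 and 98.2 CPM under the weight. The Hep3B values were 82.5 and 80.5 CPM uncompressed, 54.8 and 40.3 CPM under the weight and 32.7 and 32.8 CPM in 3% PEG. In each comparison both treated libraries were below both controls. With 2 libraries a side such separation is common. Under the weight in Hep3B, 10 of 20 genes of branched chain amino acid breakdown did not overlap, and 0 were called. The same was so for 10 of 15 genes of other aldehyde pathways, 14 of 17 tested retinoid genes and 8 of 9 tested alcohol-oxidising genes. Of the tested members 8 of 9 did not overlap there, and 1 was called. The share of all genes so separated is not given here, and this limit holds for the members below as well. ALDH1B1 passed the test in all 4 treatment comparisons. It fell in 4% PEG (-1.20 ± 0.15, adjusted p = 4.37e-05), in 3% PEG (-1.31 ± 0.15, adjusted p = 9.72e-05), under the weight in HepG2 (-0.67 ± 0.14, adjusted p = 0.0136) and under the weight in Hep3B (-0.78 ± 0.15, adjusted p = 0.0282). Both Hep3B comparisons use the same control libraries.

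ALDH2 (ENSG00000111275, chromosome 12, 111766887 to 111817529, plus strand) moved differently. In HepG2 it stood at 43.5 and 56.4 CPM in isotonic medium, 96.5 and 124 CPM in 4% PEG, 77.3 and 72.4 CPM on uncompressed transwells and 49.0 and 50.9 CPM under the weight. Among Hep3B libraries it was at 56.1 and 55.0 CPM uncompressed, 50.8 and 44.5 CPM under the weight and 79.8 and 76.8 CPM in 3% PEG. Groups did not overlap in any of the 4 treatment comparisons, with PEG libraries above their controls and weight libraries below theirs. It rose 2.20-fold in 4% PEG (1.14 ± 0.15, adjusted p = 8.42e-05) and 1.41-fold in 3% PEG (0.50 ± 0.15, adjusted p = 0.0344), and fell under the weight in HepG2 (-0.58 ± 0.15, adjusted p = 0.0321). Under the weight in Hep3B its change was -0.22 ± 0.15 (adjusted p = 0.856). The 3% PEG call was lost when any 1 of the 4 libraries was left out (adjusted p = 0.128 to 0.176).

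ALDH3A2, the fatty aldehyde dehydrogenase of the endoplasmic reticulum, is the gene mutated in Sjögren-Larsson syndrome. ALDH3A2 (ENSG00000072210, chromosome 17, 19648136 to 19677598, plus strand) stood in HepG2 at 192 and 208 CPM in isotonic medium, 126 and 122 CPM in 4% PEG, 264 and 250 CPM on uncompressed transwells and 185 and 184 CPM under the weight. In Hep3B it stood at 238 and 241 CPM uncompressed, 204 and 170 CPM under the weight and 227 and 214 CPM in 3% PEG. Treated libraries were below their controls in all 4 treatment comparisons. It fell in both HepG2 comparisons, 4% PEG (-0.70 ± 0.11, adjusted p = 0.00025) and the weight (-0.48 ± 0.11, adjusted p = 0.016). In Hep3B its change was -0.35 ± 0.11 under the weight (adjusted p = 0.217) and -0.12 ± 0.11 in 3% PEG (adjusted p = 0.475).

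ALDH3A1, its cytosolic relative, oxidises aromatic and lipid aldehydes and is a known target of the aryl hydrocarbon receptor. ALDH3A1 (ENSG00000108602, chromosome 17, 19737984 to 19748943, minus strand) had 0 and 3 counts in isotonic medium, 3 and 5 in 4% PEG, 2 and 3 in uncompressed HepG2 and 10 and 10 in HepG2 under the weight. In Hep3B it had 19 and 12 counts uncompressed, 15 and 10 under the weight and 4 and 12 in 3% PEG. All libraries were under 0.7 CPM. The HepG2 weight libraries were above the uncompressed ones. The gene passed the filter only through groups where it is higher, so no test of it is read as a difference. Its ratio in 4% PEG, from 8 counts against 3, was 2.17 (exact 95% interval 0.521 to 12.7, counting error only).

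ALDH5A1, ALDH6A1, ALDH7A1 and ALDH9A1 act in the breakdown of small nitrogen compounds and amino acids or in making carnitine. ALDH5A1 (ENSG00000112294, chromosome 6, 24494852 to 24537207, plus strand), succinic semialdehyde dehydrogenase, ends the breakdown of the neurotransmitter GABA. In HepG2 it stood at 71.0 and 57.7 CPM in isotonic medium, 82.6 and 74.3 CPM in 4% PEG, 114 and 112 CPM on uncompressed transwells and 70.7 and 80.8 CPM under the weight. Its Hep3B levels were 28.2 and 29.9 CPM uncompressed, 24.8 and 21.3 CPM under the weight and 24.2 and 21.3 CPM in 3% PEG. Every Hep3B library was below every HepG2 library. It fell under the weight in HepG2 (-0.58 ± 0.14, adjusted p = 0.0229). Its other changes were 0.29 ± 0.14 in 4% PEG (adjusted p = 0.113), -0.33 ± 0.14 under the weight in Hep3B (adjusted p = 0.526) and -0.35 ± 0.14 in 3% PEG (adjusted p = 0.0977). The exons of ALDH5A1 overlap those of GPLD1 over 239 bases on the other strand. GPLD1 had 54 to 307 counts per library, and with the strand setting not given their reads may not be separable.

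ALDH6A1 (ENSG00000119711, chromosome 14, 74056850 to 74084493, minus strand), methylmalonate semialdehyde dehydrogenase, works in valine and thymine breakdown in mitochondria. In HepG2 it stood at 97.8 and 92.5 CPM in isotonic medium, 72.2 and 72.1 CPM in 4% PEG, 97.9 and 99.3 CPM on uncompressed transwells and 51.9 and 61.4 CPM under the weight. Hep3B showed 52.1 and 52.2 CPM uncompressed, 48.8 and 42.9 CPM under the weight and 35.0 and 36.6 CPM in 3% PEG. Treated libraries were below controls each time. It fell under the weight in HepG2 (-0.80 ± 0.12, adjusted p = 0.0014), in 3% PEG (-0.54 ± 0.12, adjusted p = 0.0059) and in 4% PEG (-0.40 ± 0.11, adjusted p = 0.0131). Under the weight in Hep3B its change was -0.19 ± 0.12 (adjusted p = 0.813). Its exons overlap those of BBOF1 over 670 bases, and with the strand setting of the counting not given here their reads may not be separable. BBOF1 itself had 29 to 330 counts per library.

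ALDH7A1 (ENSG00000164904, chromosome 5, 126531200 to 126595418, minus strand), also called antiquitin, acts in lysine breakdown and can make the osmolyte betaine. In HepG2 it stood at 132 and 121 CPM in isotonic medium, 83.1 and 74.2 CPM in 4% PEG, 154 and 152 CPM on uncompressed transwells and 96.4 and 94.6 CPM under the weight. In the Hep3B libraries, levels were 132 and 127 CPM uncompressed, 118 and 109 CPM under the weight and 91.0 and 88.6 CPM in 3% PEG. Here too all treated libraries were below their controls. It fell in 4% PEG (-0.69 ± 0.10, adjusted p = 0.000199), under the weight in HepG2 (-0.68 ± 0.10, adjusted p = 0.00195) and in 3% PEG (-0.53 ± 0.10, adjusted p = 0.00348). Under the weight in Hep3B its change was -0.19 ± 0.10 (adjusted p = 0.717). The pseudogene ALDH7A1P1 had 21 to 118 counts per library against 2025 to 3772 for ALDH7A1, and how reads that match both were counted is not known here.

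ALDH9A1 (ENSG00000143149, chromosome 1, 165662216 to 165698863, minus strand) makes a carnitine precursor by oxidising trimethylaminobutyraldehyde. In HepG2 it stood at 46.7 and 39.1 CPM in isotonic medium, 61.0 and 62.2 CPM in 4% PEG, 56.9 and 59.9 CPM on uncompressed transwells and 34.3 and 33.2 CPM under the weight. For Hep3B the values were 46.7 and 47.0 CPM uncompressed, 46.7 and 42.6 CPM under the weight and 45.8 and 46.0 CPM in 3% PEG. The HepG2 groups were apart in opposite directions, while 5 of the 6 Hep3B libraries lay between 45.8 and 47.0 CPM. It rose in 4% PEG (0.52 ± 0.12, adjusted p = 0.00332) and fell under the weight in HepG2 (-0.79 ± 0.12, adjusted p = 0.00179). In Hep3B its change was -0.07 ± 0.12 under the weight (adjusted p = 1) and -0.03 ± 0.12 in 3% PEG (adjusted p = 0.901).

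**Figure D2:**
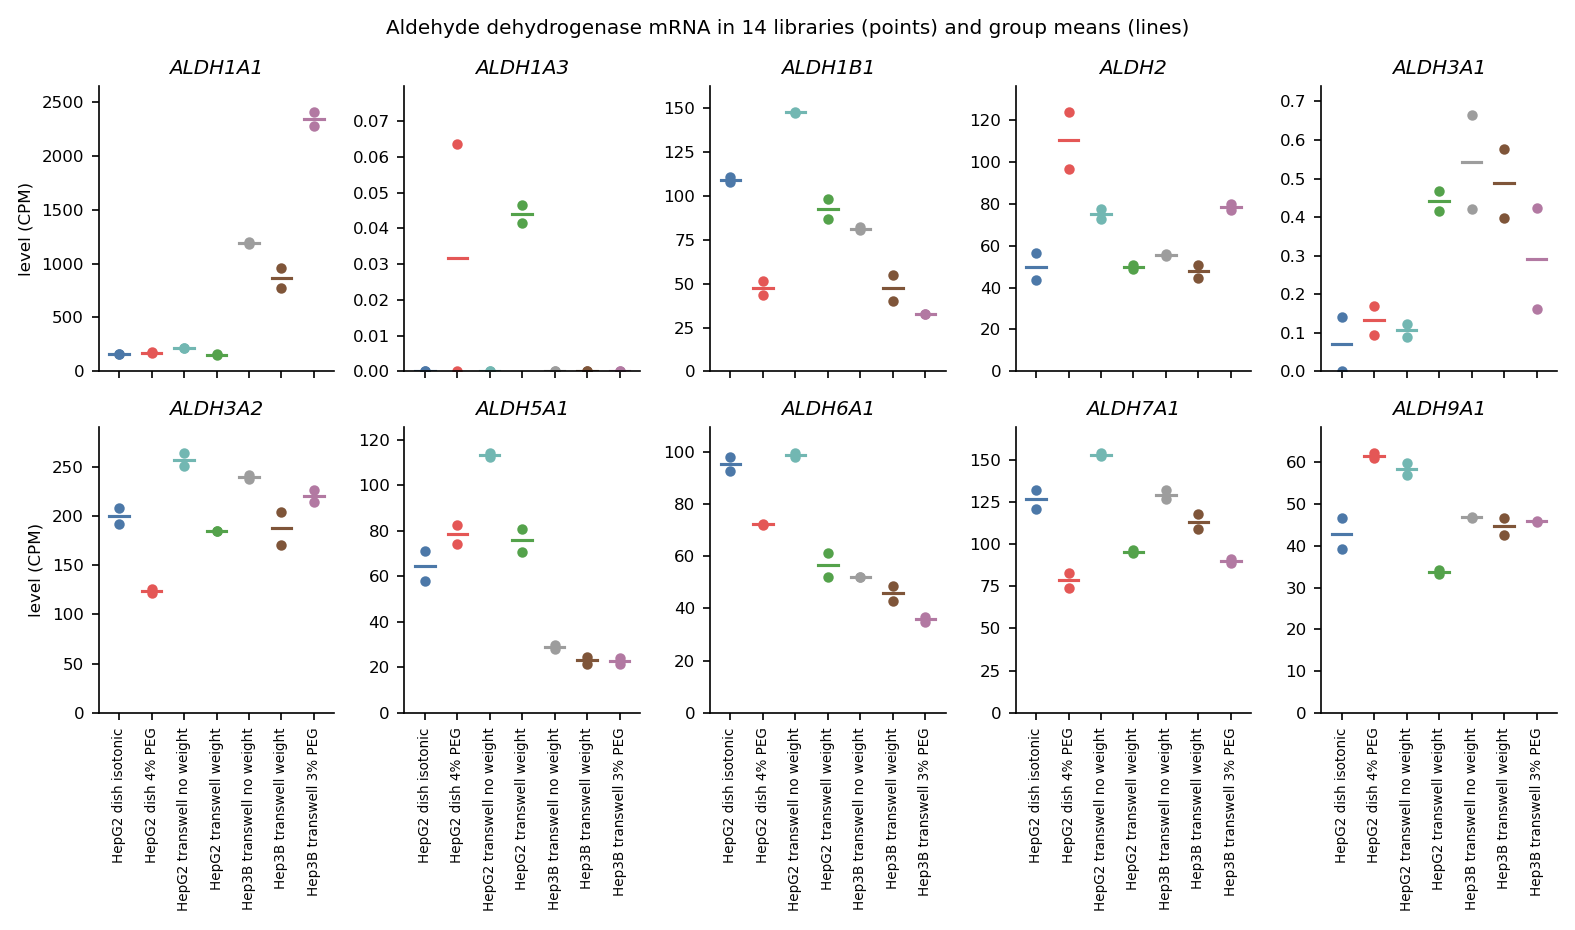
Each panel shows 1 gene, with a point for each of the 14 libraries and a line at the mean of each group (n = 2); the vertical axes are linear, in CPM, start at 0 and differ between panels. ALDH1A1 is highest in Hep3B with 3% PEG (2404 and 2274 CPM), ALDH1B1 is lower in each treated group than in its control, and ALDH1A3 has 4 counts over all libraries.

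HepG2 in 4% PEG for 5 days was compared with isotonic medium, the question of osmotic compression on a dish. ALDH2 and ALDH9A1 rose, and ALDH1B1, ALDH3A2, ALDH6A1 and ALDH7A1 fell. Of 9 genes tested, 2 were higher and 4 lower; 23.9% of all tested genes were higher and 23% lower, so calls are common in this comparison. The median over the 9 was 0.11, against 0.01 over all genes. When the 4 dish libraries were fitted alone, only ALDH2 and ALDH1B1 passed, and the adjusted p was 0.0715 for ALDH3A2, 0.276 for ALDH6A1, 0.0871 for ALDH7A1 and 0.205 for ALDH9A1. Fewer genes were called over all in that fit as well, as given in the last section. In the fit of all 14 libraries the calls of 6 members stand as listed above. All 6 kept the direction of their change when any 1 library was left out. Those fits still share the spread with the transwell groups, where replicates differed less, so they cannot test the calls on dishes. Between replicates on dishes these genes differed by up to 1.30-fold, in ALDH2. Mitochondrially encoded genes took 5.05% to 7.34% of counts in 4% PEG and 0.999% to 1.87% in isotonic medium, and the hepatocyte markers fell as given above (8 of 8, median -1.73). The bile duct markers summed to 597 to 644 CPM in isotonic medium and 903 to 970 CPM in 4% PEG, with KRT19 higher (38.1 ± 18.9 to 546 ± 113 CPM) and SOX9 and EPCAM lower. The part of these values in the changes of members was not tested.

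Calls on the companion lists of aldehyde handling stand beside 23.9% of all tested genes higher and 23% lower. A call alone thus does not set a list apart here. Of 9 tested alcohol-oxidising genes 4 fell and none rose (median -1.59). ADH6, an alcohol dehydrogenase, went from 87.8 ± 5.82 to 21.1 ± 0.156 CPM (-2.06 ± 0.11), and ADH5, which clears formaldehyde, from 354 ± 25.7 to 118 ± 3.06 CPM (-1.59 ± 0.10). Of 20 genes of branched chain amino acid breakdown, in which ALDH6A1 belongs, 12 fell and 4 rose (median -0.61). AUH, an enzyme of leucine breakdown, fell by 2.05 ± 0.15 and BCAT1, the cytosolic transaminase that starts the pathway, rose by 1.51 ± 0.12. Of 17 retinoid genes 5 rose and 4 fell (median 0.42). RBP4, the retinol carrier of serum, fell from 710 ± 207 to 150 ± 21.3 CPM. Among 15 genes of other aldehyde pathways 4 rose and 3 fell (median -0.06), with AOX1, an aldehyde oxidase, up 7.44-fold from 52.6 ± 8.77 CPM and MAOB, which makes aldehydes from amines, up 3.26-fold. Of 9 genes of the aryl hydrocarbon receptor battery 4 rose and 1 fell (median 0.24); NQO1, a quinone reductase, changed by 0.77 ± 0.12 and CYP1A1, the receptor's classic target, by 0.96 ± 0.25.

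HepG2 under a weight was compared with uncompressed transwell cells, the question of mechanical compression. ALDH1A1, ALDH1B1, ALDH2, ALDH3A2, ALDH5A1, ALDH6A1, ALDH7A1 and ALDH9A1 all fell, with changes of -0.80 to -0.48, and no member was called higher. These 8 of 9 are all the members that were above 1 CPM. The sparse ALDH3A1 had 20 counts under the weight against 5, which is not read as a difference, for the reason given above. Over the tested genes 4.18% were lower and 5.4% higher. The median over the 9 was -0.58, against 0.00 over all genes. ALDH6A1, ALDH7A1 and ALDH9A1 passed whichever library was left out. The other 5 each lost their call when any 1 library was left out (uncompressed or weight, replicate 1 or 2), so that 3 of 8 calls stood each time; their log2 changes stayed negative. The hepatocyte markers summed to 103829 to 111578 CPM uncompressed and 90968 to 101103 CPM under the weight, with 1 of 8 higher and 1 lower. The bile duct markers summed to 549 to 561 CPM uncompressed and 843 to 847 CPM under the weight, with 3 of 4 higher and none lower (KRT7, KRT19 and EPCAM). KRT19, a keratin of duct cells, went from 52.9 ± 0.490 to 173 ± 4.38 CPM. The part of these markers in the changes of members was not tested.

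Of the companion genes, 3 of 9 alcohol-oxidising genes fell and none rose (median -0.61), ADH6 from 103 ± 2.56 to 45.9 ± 2.41 CPM. In branched chain amino acid breakdown 6 of 20 fell and none rose (median -0.39). MCCC2, a subunit of the leucine pathway's carboxylase, went from 194 ± 2.75 to 98.7 ± 0.00822 CPM (-0.97 ± 0.11). Of 17 retinoid genes 2 rose and none fell (median 0.16). Of 15 other aldehyde genes 1 rose and 2 fell (median 0.01). AASS, which begins lysine breakdown upstream of ALDH7A1, changed by -1.18 ± 0.16. In the aryl hydrocarbon receptor battery 1 rose and 1 fell of 9 (median 0.06). CYP1A1 went from 10.3 ± 1.03 to 96.8 ± 5.21 CPM (3.23 ± 0.26).

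Hep3B under a weight was compared with uncompressed Hep3B. ALDH1B1 fell, and no other member passed the test. All 9 fitted changes were negative (-0.78 to -0.07, median -0.22, against -0.01 over all genes), as were 52.3% of those of all tested genes. Every member above 1 CPM was lower in weight replicate 2 than in weight replicate 1 (ALDH1A1 at 770 against 961 CPM). The 9 signs share the same libraries and are not 9 separate observations. The sparse ALDH3A1 is among the 9, with 25 counts under the weight against 31, and its change crossed 0 with 1 library left out. Of all tested genes 0.172% were lower and 0.879% higher, so few genes passed at all. The ALDH1B1 call was lost without uncompressed replicate 1, uncompressed replicate 2 or weight replicate 2 (adjusted p = 0.241, 0.215 and 0.342), and its replicates under the weight differed 1.36-fold. The bile duct markers summed to 908 to 911 CPM uncompressed and 762 to 798 CPM under the weight, with none of 4 called. With the transwell libraries fitted on their own, 6 members were lower (ALDH1A1, ALDH1B1, ALDH2, ALDH3A2, ALDH5A1 and ALDH7A1). That fit also called many more genes over all than the fit of all 14 libraries, as given in the last section. Of 61 tested genes on the alcohol, retinoid, branched chain and other aldehyde lists, edgeR called 0 here, and 12 had an unadjusted p under 0.05. ADH1A, a liver alcohol dehydrogenase, changed by -1.54 ± 0.34 (adjusted p = 0.0637), and DESeq2 called it (adjusted p = 0.000333). ACADSB, of isoleucine breakdown, changed by -0.57 ± 0.15 (adjusted p = 0.148), MAOA, an amine oxidase, by -0.42 ± 0.14 (adjusted p = 0.286) and RDH10, which oxidises retinol, by -0.25 ± 0.13 (adjusted p = 0.691). CYP1A1 was the exception in the receptor battery, 1 of 9, rising from 15.1 ± 0.517 to 53.8 ± 17.5 CPM (1.83 ± 0.25).

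The weight effects of the lines were compared directly. No member passed the test of the difference (edgeR's quasi-likelihood test). An unadjusted p under 0.05 was found for 4 of 9, namely ALDH6A1, ALDH7A1, ALDH9A1 and the sparse ALDH3A1. For ALDH3A1 this is not read as a difference, for the reason given above. Over all genes, the weight effect was higher in Hep3B for 0.822% and lower for 1.07%. The difference, Hep3B minus HepG2, was 0.72 ± 0.17 for ALDH9A1 (adjusted p = 0.0529), 0.62 ± 0.16 for ALDH6A1 (adjusted p = 0.0952) and 0.49 ± 0.14 for ALDH7A1 (adjusted p = 0.137). ALDH1A1 and ALDH1B1 differed by 0.02 ± 0.16 and -0.10 ± 0.20. ALDH9A1 passed with the stricter low-count filter (0.70 ± 0.16, adjusted p = 0.0384). DESeq2 called 3 members and the fit of transwell libraries alone called 4 (ALDH2, ALDH6A1, ALDH7A1 and ALDH9A1). Both also called more genes over all, as given in the last section. Whether a fall called in HepG2 and not in Hep3B differs between the lines thus depends on the fit for these 4 genes.

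**Figure D3:**
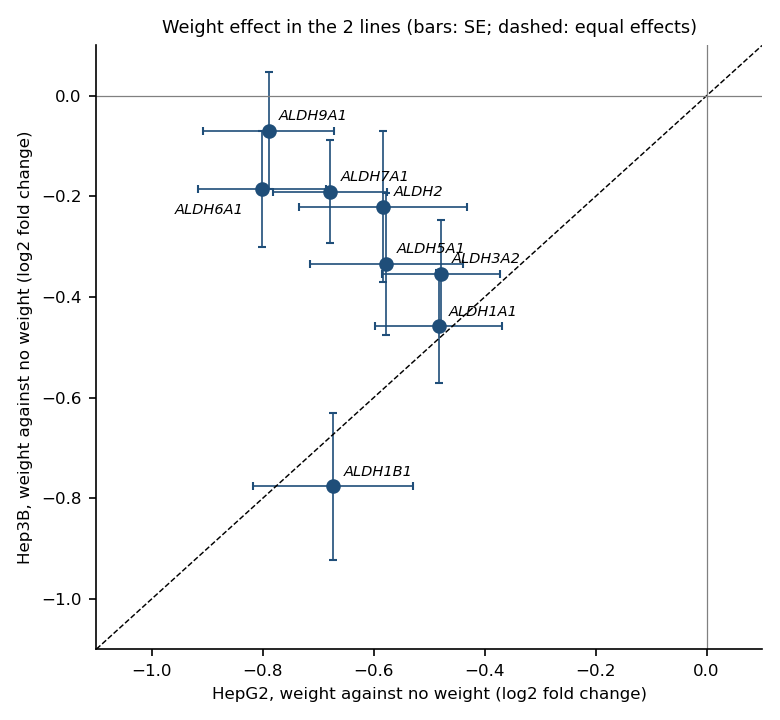
For the 8 members above 1 CPM, the log2 fold change under the weight in HepG2 (horizontal) is plotted against that in Hep3B (vertical), with bars of 1 SE; both axes are log2 and the dashed line marks equal effects. ALDH1A1 and ALDH1B1 lie near the line, and ALDH9A1 (-0.79 and -0.07) lies farthest above it.

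Hep3B in 3% PEG was compared with uncompressed Hep3B, the osmotic question in the other line. ALDH1A1 and ALDH2 rose, and ALDH1B1, ALDH6A1 and ALDH7A1 fell. These 2 and 3 of 9 stand beside 11% of all tested genes higher and 11.5% lower. The median over the 9 was -0.35, against -0.01 over all genes. Besides ALDH2, ALDH6A1 lost its call without 3% PEG replicate 1 (adjusted p = 0.0622), which left 3 calls. The dose, surface and possibly time differ from the HepG2 dish experiment, so the values are set side by side without a test: ALDH1A1 changed by 0.98 here and 0.11 there, ALDH9A1 by -0.03 and 0.52, and ALDH1B1 by -1.31 and -1.20. The 8 hepatocyte markers summed to 28558 to 28685 CPM in 3% PEG and 43270 to 45989 CPM uncompressed, 5 of them lower. The bile duct markers summed to 664 to 694 CPM in 3% PEG and 908 to 911 CPM uncompressed, with KRT19 and SOX9 lower; the part of either list in these changes was not tested.

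In 3% PEG, 6 of 9 alcohol-oxidising genes fell and none rose (median -1.07), among them CAT, catalase, from 292 ± 7.90 to 148 ± 7.08 CPM. Of 17 retinoid genes 8 fell and none rose (median -0.81), while ALDH1A1, which makes retinoic acid, rose. RARB, a retinoic acid receptor that is itself a known target of retinoic acid, went from 16.0 ± 1.16 to 3.06 ± 0.0611 CPM (-2.38 ± 0.25). In branched chain amino acid breakdown 6 of 20 fell and 1 rose (median -0.24), the riser being BCAT1, from 83.7 ± 6.57 to 259 ± 1.66 CPM. Of 15 other aldehyde genes 5 rose and 5 fell (median -0.15). ABAT, the transaminase before ALDH5A1 in GABA breakdown, went from 124 ± 4.56 to 60.6 ± 0.990 CPM. Of 9 genes of the receptor battery 6 rose and none fell (median 1.14), NQO1 from 2.85 ± 0.331 to 10.0 ± 0.398 CPM.

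The weight was also set against 3% PEG in Hep3B. ALDH1A1 was lower under the weight (-1.43 ± 0.12, adjusted p = 8.3e-06), as was ALDH2 (-0.72 ± 0.15, adjusted p = 0.00554). ALDH1B1 (0.54 ± 0.15, adjusted p = 0.0211), ALDH6A1 (0.36 ± 0.12, adjusted p = 0.0451) and ALDH7A1 (0.33 ± 0.10, adjusted p = 0.0347) were higher. Over all genes 11.8% were higher and 11.4% lower under the weight. ALDH6A1 and ALDH7A1 lost their calls when any 1 of the 4 libraries was left out. ALDH1B1 lost its call without weight replicate 1 or either 3% PEG library, and ALDH2 without weight replicate 2, so 2 calls stood each time.

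**Figure D4:**
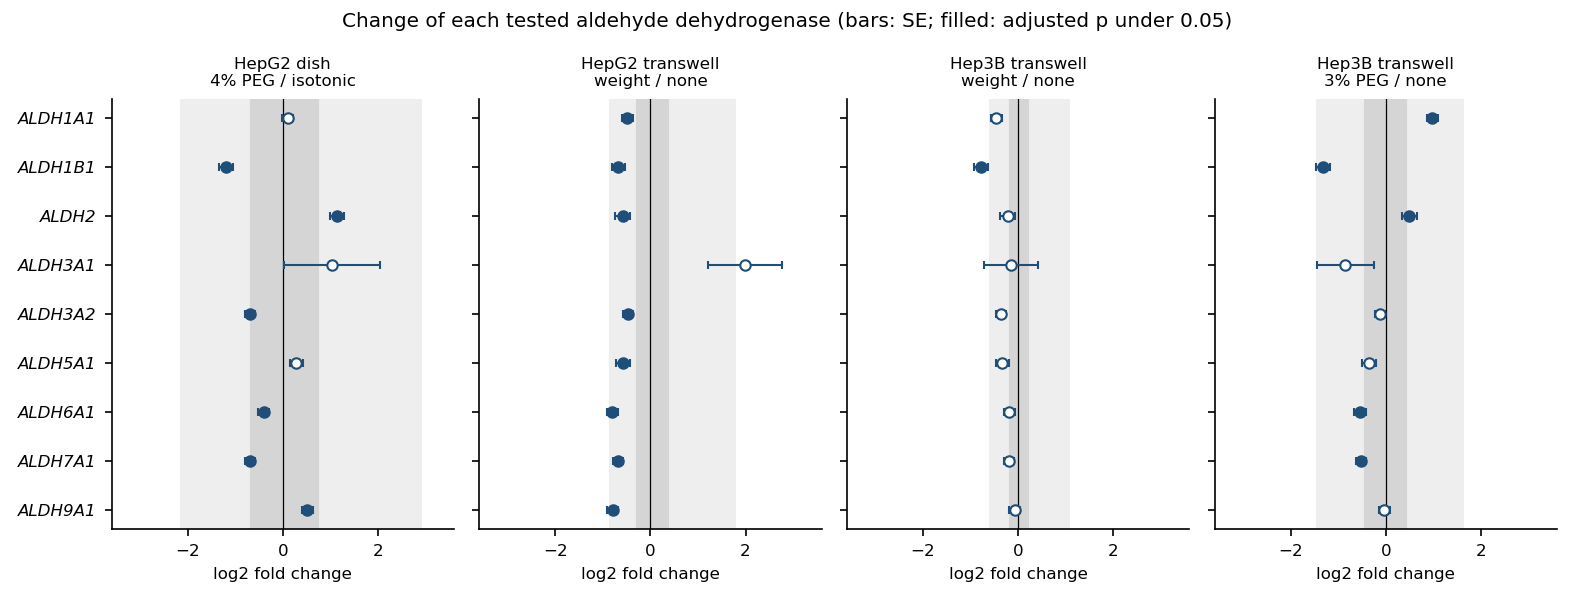
Log2 fold changes (horizontal axis, log2 scale) of the 9 tested members in the 4 treatment comparisons, with bars of 1 SE and filled points for an adjusted p under 0.05; the grey bands run from the 25th to the 75th and from the 5th to the 95th percentile of all tested genes. All filled points are negative under the weight, while ALDH2 is positive in both PEG panels.

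The lines were also compared without treatment, uncompressed Hep3B against uncompressed HepG2. ALDH1A1 was 5.49-fold higher in uncompressed Hep3B than in uncompressed HepG2 (2.46 ± 0.12, adjusted p = 1.17e-08). ALDH3A1 had 19 and 12 counts in Hep3B against 2 and 3, and is left out of the counts that follow because it passed the filter only through groups where it is higher. ALDH5A1 (-1.96 ± 0.14, adjusted p = 3.77e-07), ALDH6A1 (-0.92 ± 0.12), ALDH1B1 (-0.86 ± 0.15), ALDH2 (-0.43 ± 0.15) and ALDH9A1 (-0.32 ± 0.12) were lower in Hep3B. These 1 and 5 of the 8 members above 1 CPM stand beside 27.6% of all tested genes higher and 27.1% lower. Calls are thus common in this comparison and do not set the members apart. The calls for ALDH2 and ALDH9A1 were lost when any 1 of the 4 libraries was left out. The lines come from 1 tumour each, so line and donor cannot be told apart.

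Uncompressed HepG2 was higher on transwells than on dishes for ALDH1A1 (0.45 ± 0.11), ALDH2 (0.59 ± 0.15), ALDH5A1 (0.81 ± 0.14) and ALDH9A1 (0.44 ± 0.12), and no member was lower. Over all genes 4.79% were higher and 5.33% lower. Fitted on these 4 libraries alone, 0 members and 0 genes were called, and in edgeR's pooled fit 7 of 9 members had an unadjusted p under 0.05; DESeq2 called 5 members. No member was called without transwell replicate 1 or without transwell replicate 2, and without isotonic dish replicate 1 2 were. Surface, time in culture and possibly sequencing run cannot be told apart here.

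The other 9 ALDH genes were taken as a companion list, and 8 were tested. ALDH18A1, which makes a proline precursor rather than clearing an aldehyde, fell in 4% PEG (-1.75 ± 0.11), under the weight in HepG2 (-0.60 ± 0.11) and in 3% PEG (-0.67 ± 0.11). The call under the weight was lost without uncompressed replicate 1 or 2 or weight replicate 1 (adjusted p = 0.0544 to 0.0627). Its 4% PEG libraries were at 106 and 117 CPM against 390 and 359 CPM in isotonic medium. ALDH1A2, another retinaldehyde enzyme, was at most 2.38 CPM and rose in those 3 comparisons (1.78 ± 0.36, 1.58 ± 0.39 and 1.25 ± 0.40); the last 2 calls were lost when any 1 library was left out. The exons of ALDH1A2 overlap those of AQP9 over 354 bases on the other strand. With the strand setting of the counting not given, their reads may not be separable. ALDH1L2, the mitochondrial 10-formyltetrahydrofolate dehydrogenase, rose in 3% PEG from 0.175 and 0.351 CPM to 2.54 and 2.72 CPM (3.30 ± 0.29) and in 4% PEG (0.72 ± 0.19). The latter call was lost in the dish libraries alone (adjusted p = 0.179).

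ALDH8A1, an enzyme of tryptophan breakdown, fell in 3% PEG from 5.00 and 5.40 CPM to 0.604 and 0.424 CPM (-3.34 ± 0.31) and rose in 4% PEG from 0.354 and 0.329 CPM to 1.33 and 1.12 CPM (1.83 ± 0.36). ALDH4A1, of proline breakdown, fell in 3% PEG (-1.73 ± 0.38), a call lost without 3% PEG replicate 1 (adjusted p = 0.0655). On dishes ALDH4A1 was at 63.5 and 135 CPM in isotonic medium and 34.3 and 80.8 CPM in 4% PEG, so that groups overlapped (-0.78 ± 0.36, adjusted p = 0.0937), and each 4% PEG library was below the isotonic one of the same replicate number. The exons of ALDH4A1 overlap those of AL080251.1 over 1517 bases on the same strand, so their reads may not be separable. ALDH16A1 had 5.13 and 16.6 CPM in isotonic medium and 4.83 and 15.5 CPM in 4% PEG. ALDH1L1, the cytosolic formyltetrahydrofolate enzyme, had 0 counts in all 6 Hep3B libraries and 1113 in the uncompressed HepG2 pair, at least 455-fold lower in uncompressed Hep3B with a floor of 3 counts over the group.

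Over the 7 group means, ALDH1B1 was most like DMD, which encodes dystrophin (Pearson r = 0.989 of log2 CPM), HAAO, of tryptophan breakdown (0.986), and GRHPR, which reduces glyoxylate (0.978), among 10859 genes. For ALDH2 these were CCNYL1, a cyclin-like gene (0.987), RAPGEF2, an exchange factor for RAP proteins (0.982), and NEK1, a kinase (0.973). Over only 7 means that share lines and libraries, 201 of the 10859 genes passed 0.9 with ALDH1B1 and 99 with ALDH2. The genes named are the top of these lists, and what underlies their likeness was not tested.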

How the data were processed

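RNA had been isolated with an RNeasy kit and read as 100 bp pairs on HiSeq or NovaSeq instruments, per the labels. STAR, DESeq2 and GRCh38 (hg38) are named without versions or roles, per the submitters' processing notes; what counted the reads, on which annotation release and with which strand setting was not given in the sources used here. Values are raw counts per gene and library, as deposited by the authors, and 0 sample columns went unused. Its 15420 entries without a gene name held at most 0.308% of a library's counts and were kept in the fit under their gene IDs. The Hep3B control columns were mapped to uncompressed Hep3B, since the other Hep3B groups have columns under their names.

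edgeR 4.0.16 (R 4.3.3) was run with filterByExpr at a minimum count of 10 (19232 genes), TMM scaling, and a robust quasi-likelihood fit of all 14 libraries with 1 mean per group, 7 residual degrees of freedom and no replicate term. P-values were Benjamini-Hochberg adjusted over all genes tested, with a threshold of 0.05. The common biological coefficient of variation was 0.168. Intervals and floors (95%, 3 counts) cover counting error only. The fit was checked on simulated counts. GENCODE 29 gave coordinates and lengths, and RefSeq gave promoters.

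The members, the companion lists and the alternatives were chosen with earlier results of these data known. The text names each member, other ALDH genes past the threshold in a treatment comparison, and from each companion list the 2 genes with the smallest p in 4% PEG and 1 in each other treatment comparison, at a mean of at least 5 CPM; for likeness, 3 genes each for the 2 members with the largest change. A gene that this rule picks is not reported here. The alternatives tried were RLE size factors, a low-count filter dropped or raised (to 5 CPM in 2 libraries), the compared groups alone, 1 culture surface alone, DESeq2 1.42.0, a replicate block and leaving out each library.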

Additional observations from a re-analysis of the deposited data

Results flagged for a closer look

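Among the genes named beside the aldehyde dehydrogenases, 3 had a weight effect that differed between the lines in edgeR's quasi-likelihood test of the difference (Benjamini-Hochberg adjustment), given as Hep3B minus HepG2 on the log2 scale. ADH6, an alcohol dehydrogenase, differed by 1.02 ± 0.16 (adjusted p = 0.00712), with 103 ± 2.56 and 45.9 ± 2.41 CPM in HepG2 and 30.7 ± 0.564 and 27.7 ± 2.11 CPM in Hep3B. AASS, of lysine breakdown, differed by 1.06 ± 0.23 (adjusted p = 0.0408), with 36.8 ± 1.16 and 16.2 ± 1.45 CPM in HepG2 and 12.0 ± 1.70 and 11.0 ± 0.276 CPM in Hep3B. MCCC2, of leucine breakdown, differed by 0.75 ± 0.15 (adjusted p = 0.0297), with 194 ± 2.75 and 98.7 ± 0.00822 CPM in HepG2 and 108 ± 0.232 and 92.7 ± 11.7 CPM in Hep3B. In both lines the first value is uncompressed and the second under the weight. All 3 genes started from different levels in the lines, and what underlies the differences was not tested. Each had the smallest p of its list under the weight in HepG2, by the naming rule given above. That effect is part of the difference tested, so the naming favours such differences and they are not independent evidence. Over all tested genes the weight effect was higher in Hep3B for 0.822% and lower for 1.07%.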

How the results depend on the processing

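Of 807 single values of members under other settings, 670 kept direction and side of the threshold, 84 lost a call, 37 gained one and 16 changed sign. With the compared groups alone, members called were 2 in 4% PEG (6 in the pooled fit), 4 under the weight in Hep3B (1), 0 for transwell against dish (4) and 4 for the difference of weight effects (0). Genes called were then 3764 in 4% PEG (9011), 6972 under the weight in HepG2 (1842), 2474 in Hep3B (202), 9864 in 3% PEG (4323), 9328 for weight against 3% PEG (4444), 0 for transwell against dish (1947) and 3733 for the difference (364). With 1 culture surface alone, members called were 2, 6 and 4 in 4% PEG, the weight in Hep3B and the difference. Genes called were 3764 in 4% PEG, 7046 under the weight in HepG2, 2782 in Hep3B, 9606 in 3% PEG, 9514 for weight against 3% PEG and 4096 for the difference. Replicates differed more on dishes than on transwells. The chi-square per degree of freedom was 112 in isotonic medium and 87.5 in 4% PEG, against 6.26 to 25.1 in the transwell groups. The pooled fit shares 1 estimate of the spread over the 7 groups. Its p-values may therefore be too small on dishes and too large on transwells. DESeq2 called 2 members and 488 genes under the weight in Hep3B, and 3 members and 843 genes for the difference. Without the low-count filter, 2 members and 456 genes were called under the weight in Hep3B, 3 members (5) for weight against 3% PEG and 675 genes for the difference. The stricter filter called 1 member for the difference.

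Leaving out 1 library, members called ran from 3 to 3 under the weight in HepG2 (8), 0 to 1 under the weight in Hep3B, 3 to 4 in 3% PEG (5), 2 to 2 for weight against 3% PEG (5), 4 to 5 for the lines (7, the sparse ALDH3A1 among them) and 0 to 4 for transwell against dish (4). Genes called ran from 480 to 692 under the weight in HepG2, 38 to 120 in Hep3B, 1999 to 2143 in 3% PEG, 2018 to 2467 for weight against 3% PEG, 188 to 3829 for transwell against dish and 100 to 141 for the difference. Fewer samples were fitted each time, and the remaining library of the pair was taken to vary as the other groups do.

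Sign changes were all of values that were not called. The difference of weight effects for ALDH1A1 was -0.00593 with RLE, -0.000339 with the stricter filter and -0.00597 with DESeq2. ALDH6A1 was -0.0279 for transwell against dish with the stricter filter, and ALDH9A1 was 0.00184 in 3% PEG within transwells. With 1 library left out, the changes that crossed 0 ran as follows. ALDH3A1, with at most 19 counts in a library, ran from -0.106 to 4.84 in 4% PEG, from -0.379 to 4.57 for transwell against dish and from -0.450 to 0.201 under the weight in Hep3B. For weight against 3% PEG, ALDH5A1 ran from -0.0953 to 0.122 and ALDH9A1 from -0.107 to 0.0255. The difference of weight effects ran from -0.151 to 0.171 for ALDH1A1, from -0.349 to 0.0965 for ALDH1B1 and from -0.0175 to 0.245 for ALDH3A2.

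The labels share replicate numbers without saying that they pair libraries. Replicate differences correlated across genes at 0.633 for 4% PEG and its control and at -0.0777 to 0.0732 in the other comparisons. With the replicate block, 1 member, ALDH9A1, passed for the difference of weight effects (0.72, adjusted p = 0.0463). With the block, ALDH4A1 in 4% PEG was at -0.79 (adjusted p = 0.0533, against 0.0937 without it).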
